A study of Mus musculus with 4 samples.

Results

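The 10 genes described here, Lgr5, Ascl2, Smoc2, Rgmb, Sox9, Olfm4, Lrig1, Bmi1, Cd44 and Prom1, are used as markers of colon epithelial stem cells. They were chosen by name, with earlier results of these data known. Every probe set whose only platform gene symbol is among these names was taken, which gave 27 of the 45101 probe sets on the array. Each gene was represented by whichever of its probe sets had the highest mean level, among 18194 genes named in the same way. Expression was measured on an Affymetrix mouse array in RNA from scraped colon mucosa of 129S6/SvEv mice, 5 weeks of age, with 1 array for each of 4 genotypes. The VhlΔIE/Apcmin/+ array, called here Vhl deleted with mutant Apc, stands for mice that lack Vhl in the intestine and carry 1 Min mutant copy of Apc, a model of intestinal tumours. The VhlΔIE array, called Vhl deleted, stands for the intestinal Vhl knockout alone. The VhlF/F/Apcmin/+ array, called Vhl floxed with mutant Apc, stands for mice with floxed Vhl and the Min mutation. The VhlF/F array, called Vhl floxed, stands for mice with floxed Vhl alone. The design text names 5, 3, 3 and 4 mice for these genotypes in the order given and does not say whether their RNA was pooled. The Cre driver is not named in the sources used here, and the knockout concerns the intestine, so the muscle, vessels and immune cells of the scrapings are not said to lack Vhl. With 1 array per genotype no difference below has a replicate check and no p-value is given.

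Stem cells of the colon sit at the base of the crypts, divide throughout life and give rise to absorptive colonocytes, goblet cells and hormone-producing cells. Wnt ligands and R-spondins from the surrounding mesenchyme hold them in the stem cell state, while bone morphogenetic protein (BMP) signals promote differentiation further up the crypt. Apc restrains the Wnt pathway by helping to degrade beta-catenin, and Vhl restrains the response to low oxygen by marking hypoxia-inducible factors (HIF) for degradation. The comparisons ask how loss of Vhl, mutation of Apc, or both, go with the levels of the marker genes.

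All values are RMA values as deposited, on the log2 scale, and all differences are log2 differences between single arrays, so that a difference of 1 is a 2-fold difference. Bacterial control probe sets, which have no target in mouse RNA, lay between 2.97 and 5.10 with a median of 3.30. A gene or probe set was compared when it reached 6 on at least 1 array, which kept 11871 genes, 9 of the 10 marker genes and 20 of their 27 probe sets. In bulk RNA of this kind, fewer cells of a type and less RNA per cell cannot be told apart. Vhl and Cre probe sets followed the Vhl labels. Vhl itself read 6.56 and 7.03 in the Vhl deleted arrays with and without the Apc mutation, against 8.17 and 8.40 in the matching Vhl floxed arrays. The 4 Cre probe sets of the array lay between 7.41 and 9.95 with deleted Vhl and between 2.97 and 4.45 with floxed Vhl. Xist, which silences the inactive X chromosome in females, read 6.25 and 5.58 in the Vhl deleted arrays with and without the Apc mutation, against 11.83 and 11.37 in the matching Vhl floxed arrays. Of the genes on the Y chromosome, Eif2s3y read 8.80 and 8.78 in the Vhl deleted arrays with and without the Apc mutation, against 7.27 and 8.58 in the matching Vhl floxed arrays, and Uty read 7.74 and 7.87, against 6.35 and 7.54. The Vhl floxed arrays thus held both Xist and Y-linked RNA and the Vhl deleted arrays little Xist, so the sex makeup of the RNA differed with Vhl status, and its part in the Vhl differences was not tested. Hif1a, which encodes a HIF subunit, read 10.07 and 10.44 in the Vhl deleted arrays with and without the Apc mutation, against 12.40 and 12.36 in the matching Vhl floxed arrays. Epas1, which encodes another HIF subunit, lay between 12.03 and 12.35 on all arrays and Apc between 9.67 and 10.33. Alb, a liver transcript, read 11.53 in the Vhl floxed array and at most 7.24 in the others. The epithelial adhesion gene Epcam read between 13.87 and 13.91 on all arrays.

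Vhl deletion went with a higher level of Lgr5 and lower levels of Sox9, Rgmb, Smoc2, Ascl2 and Lrig1, and these directions were the same with and without the Apc mutation. Lgr5 was the only one of the 9 genes at least 2-fold higher and Sox9 the only one at least 2-fold lower in either Vhl comparison. Without the Apc mutation a higher level by 2-fold or more was seen for 2.27% of the 11871 genes and a lower level by as much for 1.60%. With the Apc mutation the shares were 2.82% and 1.52%. Bmi1 and Cd44 differed little with Vhl status. Prom1 differed in opposite directions in the Apc backgrounds, and Olfm4 was not above 3.83 on any array.

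**Figure D1:**
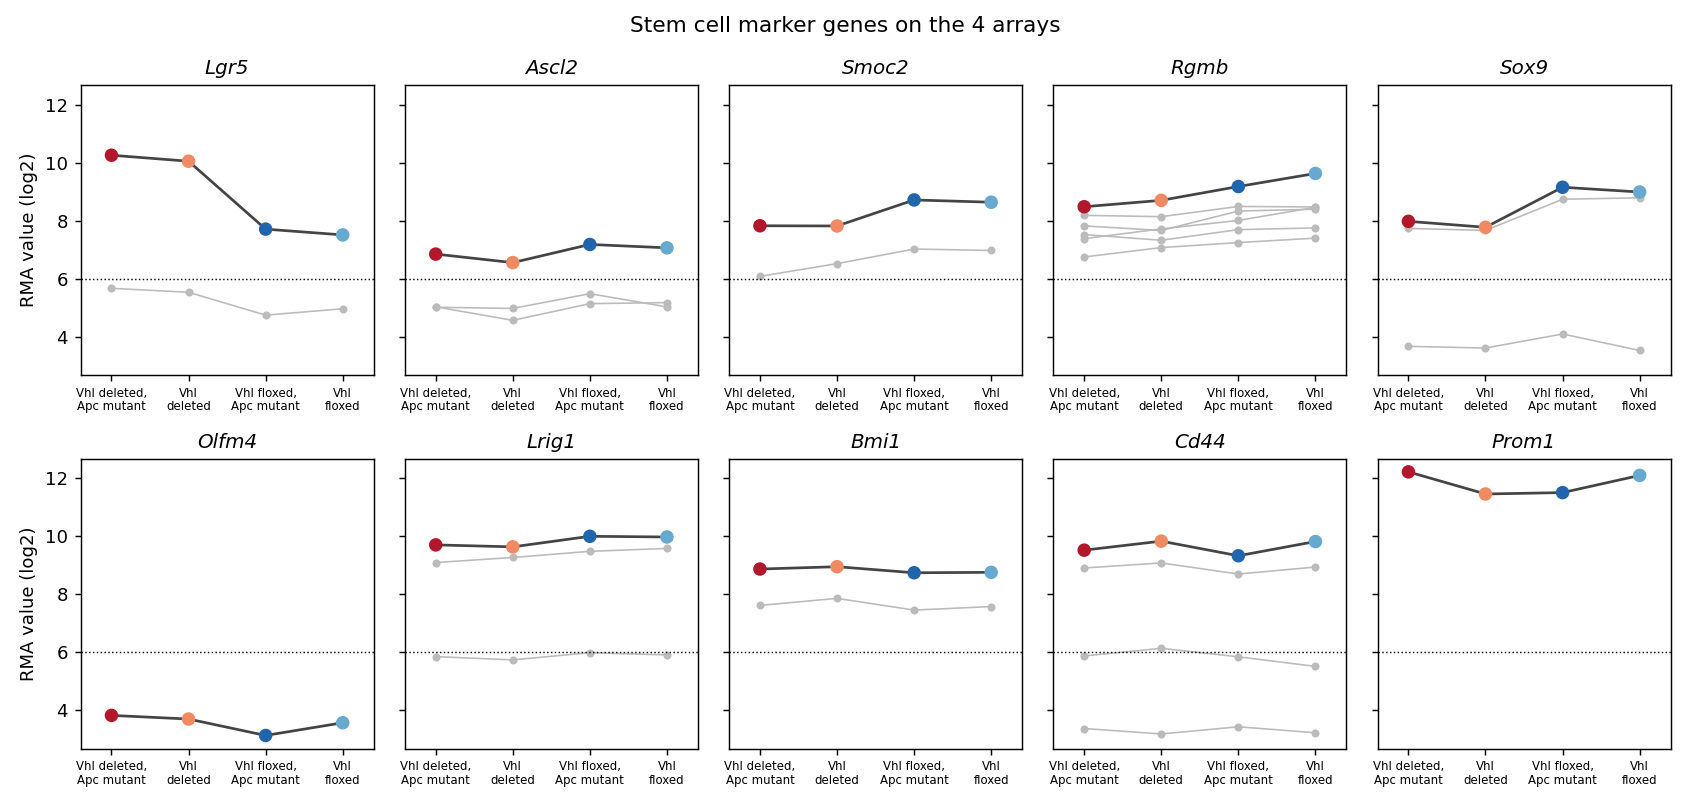
RMA values (log2, y axis) of the 10 stem cell marker genes on the 4 arrays (x axis). Large coloured points joined by a dark line are the probe set that represents the gene, small grey points are its other probe sets, lines only join the values of a probe set, and the dotted line marks the value of 6 that a gene had to reach. Lgr5 read 10.25 and 10.05 in the Vhl deleted arrays and 7.71 and 7.51 in the Vhl floxed arrays, while Olfm4 stayed at or under 3.83.

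Lgr5 encodes the receptor for R-spondins that marks the cycling stem cells of the crypt base. It read 10.25 in the Vhl deleted array with mutant Apc, 10.05 in the Vhl deleted array, 7.71 in the Vhl floxed array with mutant Apc and 7.51 in the Vhl floxed array. Both Vhl deleted arrays lay far above both Vhl floxed arrays. The difference was 2.55 with the Apc mutation and 2.54 without it, or 5.84-fold and 5.82-fold. Among 11871 genes, 39 had a Vhl difference at least as high with the Apc mutation and 30 without it, Lgr5 included. Its other probe set read 5.67 and 5.53 in the Vhl deleted arrays with and without the Apc mutation, against 4.74 and 4.96 in the matching Vhl floxed arrays. That probe set did not reach 6 and differed by 0.93 and 0.57, the same direction at a level near the background controls. RMA values can understate folds at such levels, which was not tested here. The size of the Lgr5 difference therefore rests on a single probe set.

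Ascl2, a basic helix-loop-helix transcription factor switched on by Wnt signals in the same crypt base cells, did not follow Lgr5. Its representing probe set read 6.85 in the Vhl deleted array with mutant Apc, 6.55 in the Vhl deleted array, 7.18 in the Vhl floxed array with mutant Apc and 7.06 in the Vhl floxed array. Both Vhl deleted arrays were lower than both Vhl floxed arrays, by -0.33 with and -0.51 without the Apc mutation, less than 2-fold. The other Ascl2 probe sets read between 4.56 and 5.48 and did not reach 6, and each was lower in both comparisons, by -0.05 to -0.61.

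Sox9 encodes a transcription factor of the crypt base and lower crypt that is also made by some differentiated epithelial cells and by enteric glia. It read 7.97 in the Vhl deleted array with mutant Apc, 7.77 in the Vhl deleted array, 9.15 in the Vhl floxed array with mutant Apc and 8.99 in the Vhl floxed array. The Vhl deleted arrays lay more than 2-fold below the Vhl floxed arrays, by -1.18 with and -1.22 without the Apc mutation. A further Sox9 probe set read 7.73 and 7.66 in the Vhl deleted arrays and 8.74 and 8.79 in the Vhl floxed arrays, with and without the Apc mutation in turn. It differed by -1.003 and -1.13, so the probe sets that reached 6 gave like values. The remaining Sox9 probe set read 3.52 to 4.09, at the level of the background controls, and differed by -0.43 and 0.08. Of 11871 genes, 117 had a Vhl difference at least as low as that of Sox9 with the Apc mutation and 123 without it, Sox9 included. Of 7 enteric neuron and glia markers on the array 4 reached 6, with median Vhl differences of -0.17 with and -0.08 without the Apc mutation. Of the glial genes among them, Sox10 read 6.51 to 6.72 and S100b and Gfap at most 5.36 and 5.26. Their part in the Sox9 values was not tested.

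Smoc2 encodes a secreted matrix protein that is enriched in Lgr5-positive stem cells of mouse intestine and is also made by stromal cells. It read 7.82 in the Vhl deleted array with mutant Apc, 7.82 in the Vhl deleted array, 8.71 in the Vhl floxed array with mutant Apc and 8.63 in the Vhl floxed array. Both Vhl deleted arrays were lower, by -0.89 with and -0.82 without the Apc mutation, less than 2-fold. Its other probe set read 6.08 and 6.52 in the Vhl deleted arrays with and without the Apc mutation, against 7.02 and 6.97 in the matching Vhl floxed arrays. It was lower by -0.94 and -0.45.

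Rgmb encodes a membrane-anchored co-receptor for BMP ligands. Its representing probe set read 8.48 in the Vhl deleted array with mutant Apc, 8.70 in the Vhl deleted array, 9.18 in the Vhl floxed array with mutant Apc and 9.63 in the Vhl floxed array. The Vhl difference was -0.70 with and -0.93 without the Apc mutation. All 6 Rgmb probe sets reached 6, more than for any other of the marker genes, and all 6 were lower in both Vhl comparisons, by -0.17 to -0.70 with and -0.33 to -0.93 without the Apc mutation. The direction was shared by every probe set while the size differed between them. The other probe sets read 8.18, 7.82, 7.38, 7.52 and 6.75 in the Vhl deleted array with mutant Apc and 8.14, 7.66, 7.71, 7.32 and 7.07 in the Vhl deleted array. In the same probe sets the levels were 8.49, 8.33, 8.01, 7.69 and 7.24 in the Vhl floxed array with mutant Apc and 8.47, 8.39, 8.46, 7.75 and 7.40 in the Vhl floxed array. The representing probe set was also lower in the Apc mutant arrays, by -0.22 with deleted and -0.45 with floxed Vhl, but the 6 probe sets ranged from -0.34 to 0.20 and from -0.45 to 0.02 there and shared no direction. In the representing probe set the lowest and highest levels were those of the Vhl deleted array with mutant Apc and the Vhl floxed array. Of all genes 41.4% were lower in both Vhl comparisons, as were all 11 smooth muscle markers on the array. These markers had medians of -0.39 with and -0.62 without the Apc mutation. Their summed level was 14.75 and 14.83 in the Vhl deleted arrays with and without the Apc mutation, against 15.15 and 15.31 in the matching Vhl floxed arrays. The intermediate filament gene Des differed by -0.47 with and -0.79 without the Apc mutation, Cnn1 by -0.56 and -0.65 and Synpo2 by -0.75 and -0.79. Their part in the lower values of Rgmb and Smoc2 was not tested.

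Lrig1, a membrane protein that dampens signalling by epidermal growth factor receptors and marks crypt base cells that often rest, read 9.71 in the Vhl deleted array with mutant Apc, 9.64 in the Vhl deleted array, 10.001 in the Vhl floxed array with mutant Apc and 9.98 in the Vhl floxed array. Both Vhl deleted arrays were slightly lower, by -0.30 with and -0.34 without the Apc mutation. The Lrig1 probe set of next highest level read 9.10 and 9.27 in the Vhl deleted arrays with and without the Apc mutation, against 9.48 and 9.58 in the matching Vhl floxed arrays. It differed by -0.39 and -0.31 in the same comparisons. The last Lrig1 probe set fell just short of the filter, with a highest value of 5.99, and differed by -0.14 and -0.17.

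Bmi1, a Polycomb repressor described as a marker of slowly cycling intestinal stem cells in the mouse and expressed in many other cells, read 8.87 in the Vhl deleted array with mutant Apc, 8.95 in the Vhl deleted array, 8.74 in the Vhl floxed array with mutant Apc and 8.76 in the Vhl floxed array. The Vhl deleted arrays were higher by 0.13 with and 0.19 without the Apc mutation, and its other probe set by 0.16 and 0.28. That probe set read 7.62 and 7.86 in the Vhl deleted arrays with and without the Apc mutation, against 7.46 and 7.58 in the matching Vhl floxed arrays. The median absolute Vhl difference over all 11871 genes was 0.18 in each background, so that differences of this size were common.

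Cd44, a hyaluronan receptor driven by Wnt signals in crypts and also carried by leukocytes and stromal cells, read 9.52 in the Vhl deleted array with mutant Apc, 9.83 in the Vhl deleted array, 9.33 in the Vhl floxed array with mutant Apc and 9.82 in the Vhl floxed array. These values overlap between Vhl genotypes. The Vhl difference was 0.19 with and 0.01 without the Apc mutation. The next Cd44 probe set read 8.91 and 9.08 in the Vhl deleted arrays with and without the Apc mutation, against 8.70 and 8.94 in the matching Vhl floxed arrays. All 3 Cd44 probe sets that reached 6 were higher, by 0.03 to 0.21 with and 0.01 to 0.62 without the Apc mutation, and the highest of these came from a probe set that read only 5.52 to 6.14. A further Cd44 probe set read 3.19 to 3.44, at the level of the background controls. Of the leukocyte lists, whose cells also carry Cd44, the 10 of 10 macrophage and dendritic cell markers were higher in both comparisons, against 34.5% of all genes. These markers had medians of 0.40 with and 0.75 without the Apc mutation. Their summed level was 12.51 and 12.66 in the Vhl deleted arrays, against 12.13 and 11.90 in the matching Vhl floxed arrays. Of 7 B and plasma cell markers 5 were lower with the Apc mutation and 5 higher without it, with medians of -0.13 and 0.24, and the 3 T and NK cell markers that reached 6 had medians of 0.02 and 0.13. The part of these cells in the Cd44 values was not tested.

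Prom1, a glycoprotein of membrane protrusions that is found in crypt stem and progenitor cells of the mouse and also on the apical surface of other epithelial cells, was the exception among the marker genes. It read 12.22 in the Vhl deleted array with mutant Apc, 11.46 in the Vhl deleted array, 11.51 in the Vhl floxed array with mutant Apc and 12.10 in the Vhl floxed array. The array with both alterations and the array with neither were the high pair. With the Apc mutation the Vhl deleted array was higher by 0.71, and without it the Vhl deleted array was lower, by -0.64. The Vhl difference with the Apc mutation minus that without it was 1.36. This quantity was at least 1 in size for 1.57% of the 11871 genes and for Prom1 alone of the marker genes, whose other members lay between -0.07 and 0.23. Over all genes its median was -0.01. Prom1 has 1 probe set on the array, so there is no further probe set to set beside it. Cdx2, a transcription factor of intestinal epithelium picked out here after its values were seen, had a like pattern, with Vhl differences of 0.67 with and -0.62 without the Apc mutation. The Vhl differences had opposite signs in the Apc backgrounds for 23.9% of all genes. Among 12 markers of small intestinal enterocytes that reached 6, Fabp2, Alpi and Apoa1 had a larger contrast of the same kind, and were likewise picked out after their values were seen. Fabp2, a fatty acid binding protein, differed by 2.01 with and -0.87 without the Apc mutation, Alpi, an alkaline phosphatase, by 1.49 and -1.004, and Apoa1, an apolipoprotein also made by liver, by 1.60 and -0.52. Apoa4 of the same list had the reverse contrast, at -1.47 with and 0.25 without the Apc mutation. Of the 12 markers, 4 were higher and 8 lower with the Apc mutation, and 3 were higher and 9 lower without it. Of all genes 53.5% and 53.3% were lower in these comparisons. The list as a whole had medians of -0.22 and -0.40, and its summed level was 12.92 and 12.86 in the Vhl deleted arrays with and without the Apc mutation, against 12.69 and 13.41 in the matching Vhl floxed arrays. Lct and Gata4, also on the list, did not reach 6 on any array. The part of these cells in the Prom1 values was not tested.

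Olfm4, a secreted glycoprotein that marks stem cells in the small intestine, is known to be little expressed in mouse colon. It read 3.83 in the Vhl deleted array with mutant Apc, 3.70 in the Vhl deleted array, 3.14 in the Vhl floxed array with mutant Apc and 3.58 in the Vhl floxed array. All values lay within the range of the bacterial controls, so the gene was not compared further, and what it shows is a level at background on every array.

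**Figure D2:**
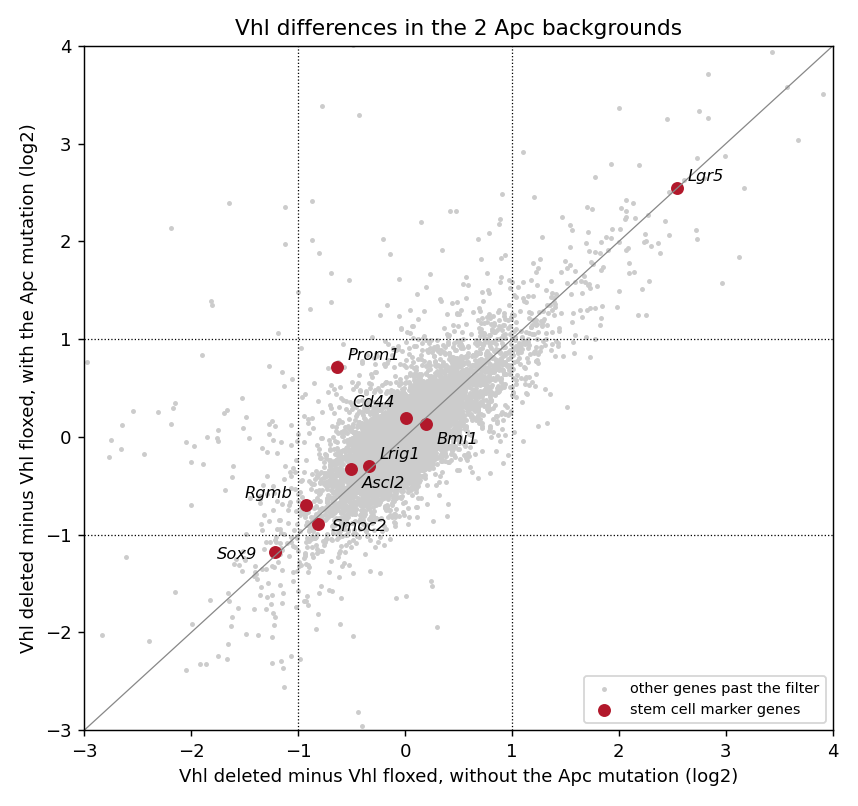
Vhl difference (Vhl deleted minus Vhl floxed, log2) with the Apc mutation (y axis) against the same without it (x axis) for the 9 marker genes (red) and the other genes past the filter (grey). Dotted lines mark a 2-fold difference, the solid line marks equal differences, and 31 of 11871 genes lie outside the axes. Lgr5 lies at 2.54 and 2.55 on the line, Sox9 at -1.22 and -1.18, and Prom1 lies off the line at -0.64 and 0.71.

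As a set the 9 genes did not move one way. The median Vhl difference was -0.30 with the Apc mutation, where 4 genes were higher and 5 lower, and -0.51 without it, where 3 were higher and 6 lower. Of all genes 53.5% were lower with and 53.3% without the Apc mutation, so these counts lie near those shares. Over all 11871 genes the median was -0.02 in each background. For 5 of the 9 genes both Vhl deleted arrays lay below both Vhl floxed arrays, as they did for 33.4% of all genes, and for 2 of the 9, Lgr5 and Bmi1, both lay above, as for 27.7% of all genes. Counted by probe set, 13 of the 20 that reached 6 lay below, against 32.9% of the 20695 such probe sets, and 4 lay above, against 25.9%. Probe sets of 1 gene share their target and are not independent. The members differed more in size than most genes: the median absolute Vhl difference was 0.70 and 0.64 with and without the Apc mutation, against 0.18 over all genes in each background. By probe set it was 0.44 and 0.48, against 0.18 and 0.17. The genes were chosen with earlier results of these data known, so this larger size is a description and not an independent result. Lgr5 was higher and Sox9 lower by 2-fold or more in both backgrounds, as were 1.58% and 0.733% of all genes.

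**Figure D3:**
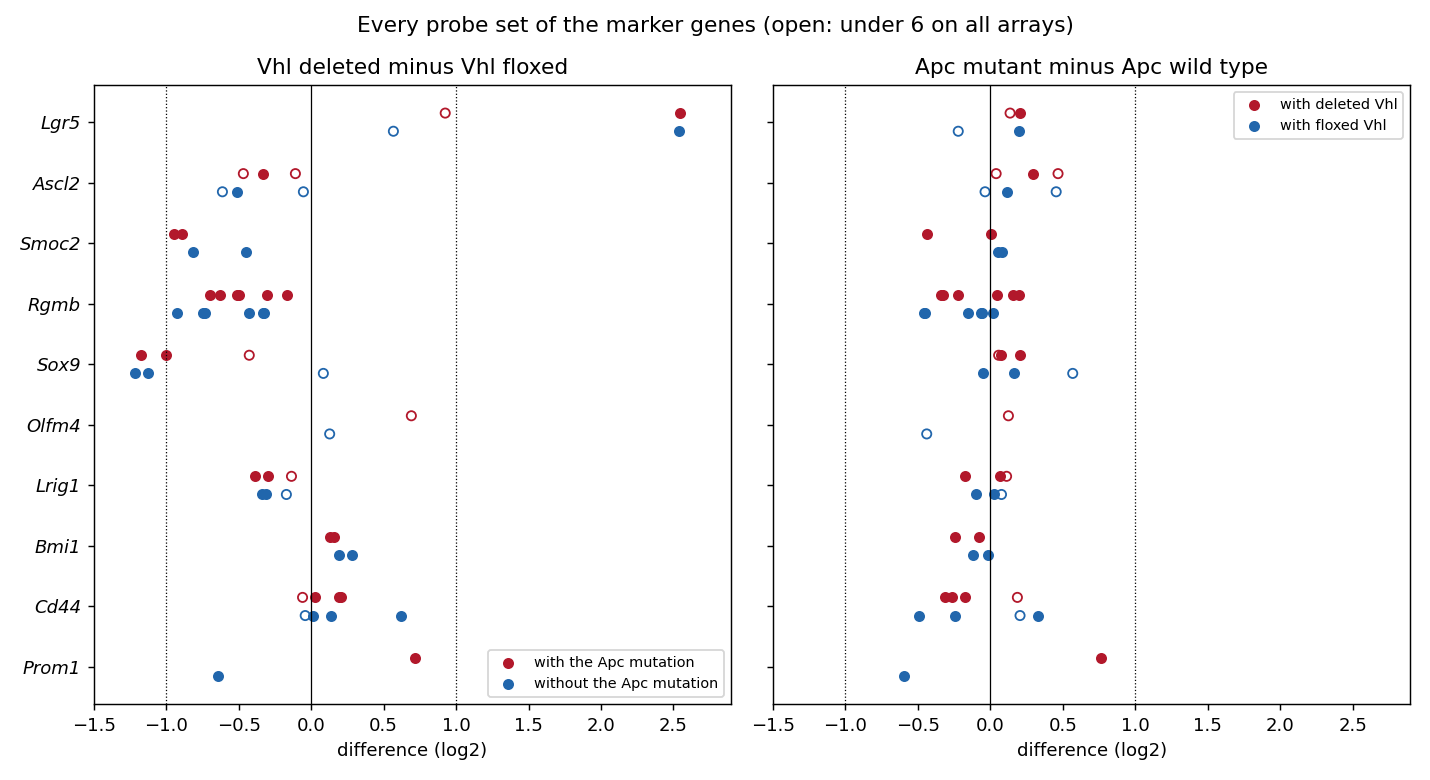
Differences (log2, x axis) of all 27 probe sets of the marker genes (y axis), on the left between Vhl deleted and Vhl floxed arrays and on the right between Apc mutant and Apc wild-type arrays. Colours give the background of the comparison, filled points are probe sets that reached 6 and open points those that did not, and dotted lines mark 2-fold. On the left all 6 Rgmb probe sets lie below 0 and the main Lgr5 probe set lies at 2.55 and 2.54, while on the right no point passes a dotted line.

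The Apc mutation went with differences under 2-fold in these genes. Their median absolute Apc difference was 0.21 with deleted and 0.16 with floxed Vhl, against 0.10 and 0.12 over all genes. None of the 9 was 2-fold apart with deleted Vhl, where 0.202% of the 11871 genes were higher by that much and 0.118% lower. None was 2-fold apart with floxed Vhl either, where the shares were 0.118% and 0.901%. No test was run on these counts. The arrays compared with floxed Vhl also differed in Y-linked and liver RNA, by -1.31 for Eif2s3y, -1.19 for Uty and -5.44 for Alb. With deleted Vhl these genes differed by 0.03, -0.13 and -0.16. The part of sex makeup and of liver RNA in the Apc differences was not tested. The medians were 0.07 with deleted and 0.02 with floxed Vhl, against 0.00 over all genes, and both changed sign under other processing, between -0.09 and 0.10 and between -0.06 and 0.04. Lgr5, a target of the Wnt pathway that Apc restrains, was higher by 0.21 with deleted and 0.20 with floxed Vhl, so the Apc differences of Lgr5 were far smaller than its Vhl differences. Averaged over both Lgr5 probe sets the Apc differences were 0.17 and -0.01, so the direction with floxed Vhl rests on the choice of probe set. Sox9 was higher by 0.20 and 0.16 in the same comparisons, and Ascl2 by 0.29 and 0.12. The further Sox9 probe set that reached 6 differed by 0.07 with deleted and -0.05 with floxed Vhl. Cd44 was lower by -0.31 with deleted and -0.49 with floxed Vhl. Its 3 probe sets that reached 6 ranged from -0.31 to -0.17 with deleted and from -0.49 to 0.33 with floxed Vhl, so the direction with floxed Vhl was not shared by all. By its representing probe set Cd44 was the only one of the 9 genes for which both Apc mutant arrays lay below both Apc wild-type arrays, as for 12.2% of all genes, and none of the 9 lay above, against 12.5% of all genes. The largest Apc difference was that of Prom1, 0.76 with deleted and -0.59 with floxed Vhl. Only 44 of 11871 genes, Prom1 included, had an Apc difference with deleted Vhl at least as high.

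Set against the Vhl floxed array, the array with both alterations was higher for Lgr5 by 2.75 and lower for Rgmb by -1.15 and Sox9 by -1.01. These were the members at least 2-fold apart, where 2.26% of genes were higher by that much and 1.68% lower. This comparison shares its arrays with the others. The fold for Lgr5 was 6.71. Cd44 differed by -0.30, or by 0.04 when averaged over its probe sets. Smoc2 differed by -0.81, Lrig1 by -0.27, Ascl2 by -0.22, Prom1 by 0.12 and Bmi1 by 0.11.

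Promoter sequences from RefSeq (GRCm38.p6) were at hand for 7 of the 10 genes, Ascl2, Rgmb, Olfm4, Lrig1, Bmi1, Cd44 and Prom1, in 10 windows of the 250 bases before an annotated start. They were searched on both strands for the HIF core letters ACGTG and GCGTG and for the TCF/LEF letters CTTTGA and CTTTGT, the sites through which beta-catenin acts. Overlapping matches on the opposite strands were counted apart. HIF letters were found in 8 of the 10 windows and in 38.6% of all 32851 promoter windows of this length. By gene, 6 of the 7 held HIF letters. Rgmb and Prom1 have more than 1 window each, some Rgmb windows overlap, and windows of 1 gene are not independent. TCF/LEF letters were found in 1 of the 10 windows, at an Rgmb start, and in 27.6% of all windows. The 10 windows had a median GC content of 61.4%, against 52.4% over all windows, which bears on how often letters rich in G and C occur. The windows below are shown because they belong to genes with different Vhl differences, Ascl2 and Rgmb lower and Bmi1 slightly higher in the Vhl deleted arrays, and all hold HIF letters, here in capitals where they occur on either strand. A match is a description of the letters and not a bound site. They are written 5′ to 3′ on the strand of the gene: Ascl2 at chr7:142969265-142969514 on the minus strand, the most upstream Rgmb window at chr17:15831247-15831496 on the minus strand, and Bmi1 at chr2:18676768-18677017 on the plus strand.
Ascl2: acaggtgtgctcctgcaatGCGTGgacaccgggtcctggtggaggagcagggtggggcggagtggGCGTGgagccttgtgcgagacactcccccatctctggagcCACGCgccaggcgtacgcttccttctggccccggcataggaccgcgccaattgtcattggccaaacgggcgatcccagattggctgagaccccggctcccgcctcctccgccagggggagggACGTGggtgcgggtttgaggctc
Rgmb: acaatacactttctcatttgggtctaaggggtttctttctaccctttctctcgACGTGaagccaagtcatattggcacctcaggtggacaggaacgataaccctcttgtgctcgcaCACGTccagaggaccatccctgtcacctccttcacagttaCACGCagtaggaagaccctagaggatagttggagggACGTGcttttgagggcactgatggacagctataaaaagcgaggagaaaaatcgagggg
Bmi1: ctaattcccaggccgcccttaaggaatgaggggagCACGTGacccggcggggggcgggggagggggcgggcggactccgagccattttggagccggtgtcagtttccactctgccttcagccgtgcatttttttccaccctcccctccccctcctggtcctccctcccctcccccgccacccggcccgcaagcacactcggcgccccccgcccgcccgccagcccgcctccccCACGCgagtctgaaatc
Ascl2 and Rgmb each hold 4 matches and Bmi1 holds 3, of which an overlapping pair starts 215 and 214 bases before the start. The matches nearest the start begin 23 bases before it in Ascl2, 58 in Rgmb and 17 in Bmi1. The Prom1 windows hold no match to either set of letters. Among the genes with a window, HIF letters thus occurred before genes that were lower, slightly higher or at background in the Vhl deleted arrays. Lgr5, Sox9 and Smoc2 had no window, and Lgr5 and Sox9 were the only members 2-fold apart in the Vhl comparisons. The windows therefore cannot show whether the letters go with the largest Vhl differences.

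Other genes of the crypt base and of Wnt-driven stem cells did not share the Lgr5 difference. Of 15 such genes that reached 6, none was 2-fold apart in either Vhl comparison. With the Apc mutation 7 were higher and 8 lower, with a median of -0.07, and without it 3 were higher and 12 lower, with a median of -0.32. Axin2, a feedback inhibitor and standard target of Wnt signalling, read 9.14 and 9.14 in the Vhl deleted arrays with and without the Apc mutation, against 8.62 and 8.55 in the matching Vhl floxed arrays. It was higher by 0.53 and 0.59. Rnf43, the ubiquitin ligase that removes Wnt receptors and is itself countered by R-spondins through Lgr receptors, was lower by -0.68 and -0.48 in the same comparisons. Slc12a2, a chloride cotransporter enriched in crypts, was lower by -0.54 and -0.68. Lgr4, the close relative of Lgr5 with a broader expression, was lower by -0.59 and -0.23. Ccnd1, also on this list, was higher by 0.72 and 0.29, the same direction as Lgr5 and Axin2.

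Markers of reserve or resting stem cells gave medians of 0.02 with and -0.29 without the Apc mutation over 8 genes that reached 6. With the Apc mutation none was 2-fold apart. Without it Aldh1a1, a retinaldehyde dehydrogenase, was lower by -1.29 and Dclk1, better known from tuft cells, by -1.06, and with it they differed by -0.40 and 0.12. Aldh1a1 and Dclk1 were highest in the Vhl floxed array, where the liver transcript Alb was also highest. The part of liver RNA in their differences was not tested. Clu, a secreted chaperone that marks a damage-induced stem cell state in mouse intestine, was lower by -0.79 with and -0.75 without the Apc mutation. Hopx, a homeodomain protein used as a reserve stem cell marker, was lower by -0.40 and -0.16.

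Ligands and antagonists of the stem cell niche moved in both directions. Of 17 that reached 6, 1 was higher and 1 lower by 2-fold or more in each background, and the medians were 0.11 with and 0.10 without the Apc mutation. The higher one was Ereg, epiregulin, a ligand of the epidermal growth factor receptor. It read 7.81 and 8.76 in the Vhl deleted arrays with and without the Apc mutation, against 6.48 and 6.79 in the matching Vhl floxed arrays, differences of 1.33 and 1.98. The lower one was Dll1, a Notch ligand of secretory progenitors, at -1.05 and -1.22. Wnt5a, a Wnt ligand of the mesenchyme, was higher by 0.81 and 0.98. The R-spondin genes Rspo2 and Rspo3, whose products bind Lgr5, differed by 0.03 and -0.03 with and by -0.04 and 0.04 without the Apc mutation. Both read near the filter value of 6, Rspo2 at 5.92 to 6.13 and Rspo3 at 6.25 to 6.35. Rspo1 and Rspo4 did not reach 6 on any array. Notch pathway genes had medians of -0.20 and -0.24 over 11 genes, with Dll1 the only gene 2-fold apart. Atoh1, the transcription factor of secretory cells, was lower by -0.38 with and -0.72 without the Apc mutation, and Notch1 by -0.33 and -0.54.

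Proliferation genes were higher together with Lgr5. All 21 that reached 6 were higher in both Vhl comparisons, against 34.5% of all genes. Of the 21, 5 were at least 2-fold higher with and 4 without the Apc mutation, and the medians were 0.79 and 0.67. The difference was 2.31 with and 2.07 without the Apc mutation for Bub1, which guards chromosome attachment in mitosis. It was 1.59 and 1.00 for Rrm2, needed to make deoxynucleotides, 1.23 and 0.99 for the mitotic kinase gene Aurkb, and 1.08 and 1.09 for its relative Aurka. The Apc mutation went with lower values of 16 of the 21 with deleted and 20 of the 21 with floxed Vhl, with medians of -0.14 and -0.24. Of all genes 49.4% and 49.1% were lower in these comparisons.

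**Figure D4:**
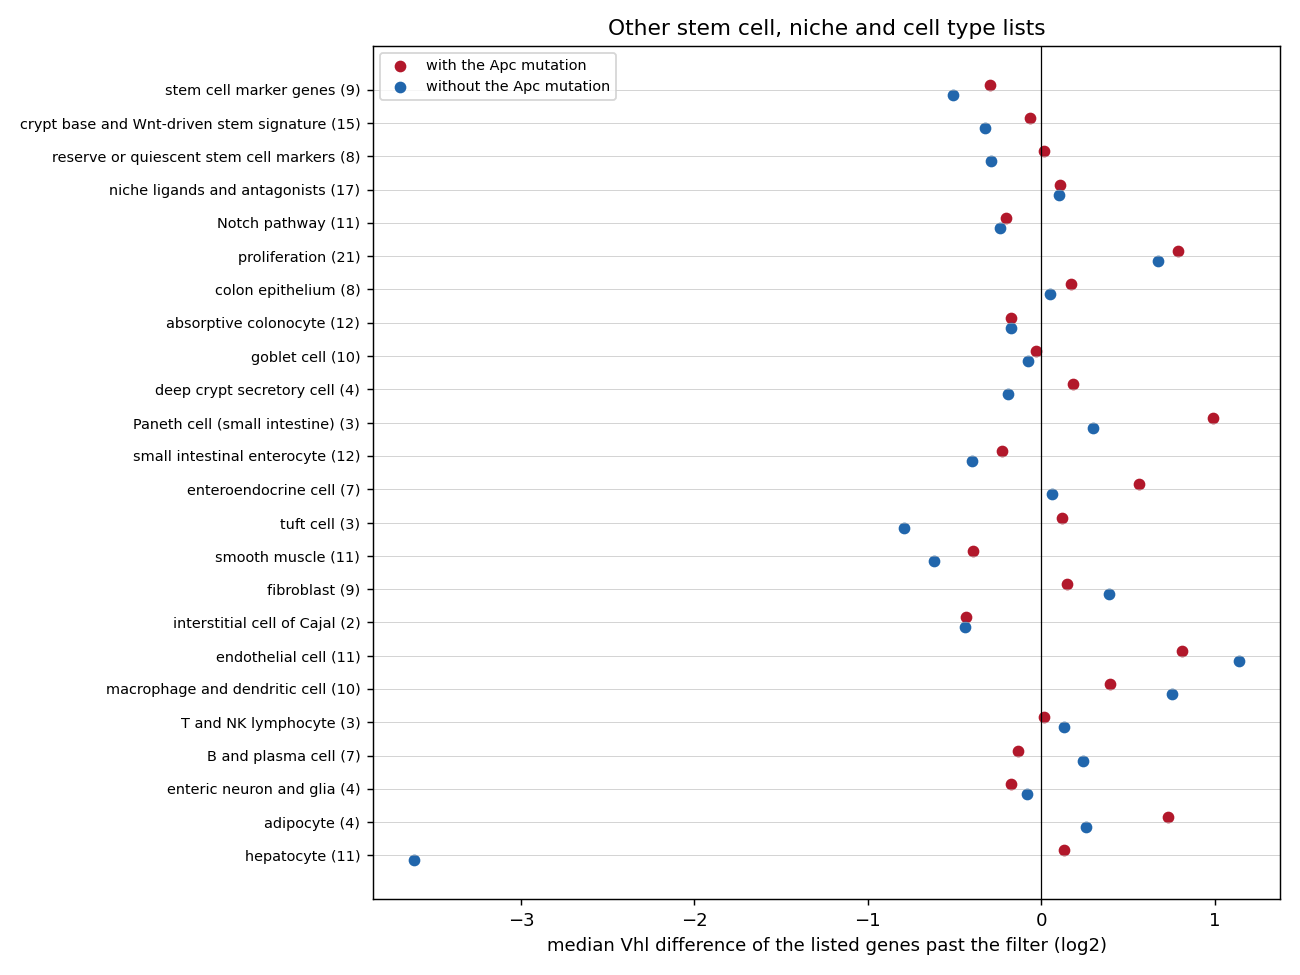
Median Vhl difference (log2, x axis) of the marker genes, of further stem cell, niche, Notch and proliferation lists, and of cell type markers (y axis, with the number of genes past the filter), with the Apc mutation in red and without it in blue. Proliferation genes lie at 0.79 and 0.67 and endothelial markers at 0.81 and 1.14, smooth muscle markers at -0.39 and -0.62, and the stem cell marker genes at -0.30 and -0.51.

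Markers of the epithelium as a whole changed little, with medians of 0.17 with and 0.05 without the Apc mutation over 8 genes and none 2-fold apart. Krt20, a keratin of surface cells, differed by 0.39 with and 0.09 without the Apc mutation, the villus protein gene Vil1 by 0.24 and 0.14, and the transcription factor gene Cdx1 by -0.33 and -0.27. Absorptive colonocyte markers had medians of -0.18 and -0.18 over 12 genes. Among them the phosphate transporter gene Slc20a1 was 2-fold apart in both, at -1.84 with and -1.62 without the Apc mutation, the chloride exchanger gene Slc26a3 differed by -0.76 and -0.69 and the guanylin gene Guca2a by -0.11 and -1.34. Goblet cell markers had medians of -0.03 and -0.08 over 10 genes. Clca1 differed by -0.54 and -0.69, Ramp1 by -0.55 and -0.65, and Spdef, a transcription factor of secretory cells, by 1.04 and 0.18. Deep crypt secretory cells lie between the Lgr5-positive cells of the colon and are marked by Reg4, which was lower by -0.99 and -0.48. Their other listed markers, Kit, Agr2 and Spink4, differed by -0.04, 0.40 and 0.47 with and by -0.66, 0.10 and 0.44 without the Apc mutation.

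Markers of other cell types moved with Vhl status beside the genes that stroma also makes. Those of smooth muscle are given with Rgmb above. Fibroblast markers had medians of 0.15 and 0.39 over 9 genes, and a summed level of 14.34 and 14.44 in the Vhl deleted arrays, against 14.43 and 14.16 in the matching Vhl floxed arrays. The matrix gene Lum differed by -0.91 with and -0.10 without the Apc mutation, the receptor gene Pdgfra by 0.70 and 0.78 and the collagen gene Col6a1 by 0.32 and 0.46. All 11 endothelial markers were higher in both Vhl comparisons, against 34.5% of all genes. These markers had medians of 0.81 and 1.14. Their summed level was 11.79 and 11.86 in the Vhl deleted arrays, against 10.71 and 10.62 in the matching Vhl floxed arrays. Emcn was higher by 2.00 with and 2.25 without the Apc mutation, the receptors of vascular endothelial growth factor Flt1 by 1.69 and 1.46 and Kdr by 1.27 and 1.18, and Plvap by 1.38 and 1.39. Of the macrophage list, Itgam differed by 1.25 and 2.18 and the complement genes C1qa by 0.54 and 0.94 and C1qb by 0.52 and 1.22. Of the enterocyte list, Mttp, which loads lipid onto apolipoprotein B, was higher by 1.78 and 2.10, while Fabp1 differed by -0.13 and -2.66 and Apob by -0.35 and -1.03. Paneth cell markers, which belong to the small intestine, reached 6 for Lyz1, Mmp7 and Ang4 and not for Itln1 and Defa3, at most 5.31 and 3.66. Lyz1, Mmp7 and Ang4 differed by 0.27, 0.99 and 4.30 with and by 0.35, 0.30 and -1.44 without the Apc mutation. Hepatocyte markers differed by a median of 0.13 with and -3.62 without the Apc mutation, and were highest in the Vhl floxed array. Serpina1c, Bhmt and Cyp3a11 of that list differed by -0.51, -0.09 and -0.88 with and by -6.15, -3.69 and -3.62 without the Apc mutation. Fabp1 and Apob of the enterocyte list were likewise highest in the Vhl floxed array, and the part of liver RNA in their values was not tested.

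Genes with a similar pattern were sought for the 3 marker genes whose values spanned at least 1, by the Euclidean distance between values centred on their own mean over the 4 arrays. This is a likeness over 4 values and says nothing of shared control. For Lgr5 they were Slc7a8, an amino acid transporter, at a distance of 0.19, Vnn1, a pantetheinase, at 0.23 and Slc16a3, a lactate exporter induced by hypoxia, at 0.25. For Sox9 they were Pdxk, pyridoxal kinase, at 0.08, Rasd2 at 0.10 and Oplah, a 5-oxoprolinase, at 0.11. For Rgmb they were Synm, an intermediate filament protein of muscle, at 0.06, Acer1, an alkaline ceramidase, at 0.09 and Synpo2, an actin-binding protein of smooth muscle, at 0.11. Synm read 9.26 in the Vhl deleted array with mutant Apc, 9.51 in the Vhl deleted array, 9.98 in the Vhl floxed array with mutant Apc and 10.48 in the Vhl floxed array.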

How the data were processed

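Expression was measured on 4 arrays, 1 per genotype. The values analysed are the log2 values that the authors deposited. The submitters' processing notes name RMA and the affy package as the tools behind them, without versions. RMA corrects background, quantile-normalizes and summarises probes, so an overall gain or loss of RNA cannot be seen. Array medians were 6.05 to 6.07. Gene names came from GEO's platform annotation, with 1 symbol for 34958 probe sets and several for 932, and 9211 not listed; Entrez identifiers of 34754 were found in RefSeq GRCm38.p6 and 0 symbols changed. The probe set with the highest mean represented a gene, and genes reaching 6 on at least 1 array were compared. Differences are 1 array minus another, counted at 2-fold. No test was possible within groups, and the number of arrays limits precision.

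The marker genes, the other gene lists and the rules were chosen with earlier results of these data known. The rule for naming took from each list the 3 genes with the largest absolute mean Vhl difference and those 2-fold apart in both Vhl comparisons. For the tuft, adipocyte, Cajal, lymphocyte, B cell and neuron lists medians or counts alone are given, and other genes were added where they bear on a marker gene. Tuft cell markers had median Vhl differences of 0.12 with and -0.79 without the Apc mutation, adipocyte markers of 0.73 and 0.26, and Cajal cell markers of -0.44 in each. Likeness took 3 genes per marker gene, passing over clone symbols. Alternatives were no filter, a floor of 7, values under 6 raised to 6, the mean or median over probe sets, leaving out probe sets ending in _s_at, _x_at or _a_at, cyclic loess and a 1.5-fold threshold. The counting was tested on simulated data. Cyclic loess was run with limma 3.58.1 in R 4.3.3. Everything else ran in Python 3.11.15 with pandas 2.3.3 and numpy 2.4.6, and matplotlib 3.10.9 drew the figures.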

Additional observations from a re-analysis of the deposited data

Results flagged for a closer look

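Prom1 was singled out because its difference changed sign with the background. Its Vhl difference was 0.715 with the Apc mutation and -0.64 without it, and its Apc difference was 0.763 with deleted Vhl and -0.593 with floxed Vhl. These are the same 4 values read in both ways, each from a single array and a single probe set, and the difference between the backgrounds was not tested.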

How the results depend on the processing

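In both Vhl comparisons Lgr5 stayed at least 2-fold higher under every alternative run, with its lowest difference, 1.74 with and 1.55 without the Apc mutation, when its dim probe set was averaged in. With the mean over probe sets, which for Sox9 takes in a probe set at background and for Rgmb 5 others past the filter, 0 members were at least 2-fold lower in the Vhl comparison with or without the Apc mutation, and 0 in the comparison of both alterations with Vhl floxed, against 1, 1 and 2. The median over probe sets and cyclic loess each gave 1 lower member in that last comparison. At a 1.5-fold threshold the Vhl comparison gave 2 higher and 3 lower members with the Apc mutation and 4 lower without it, and the Apc comparison gave 1 higher with deleted and 1 lower with floxed Vhl, Prom1 in both. Of 290 alternative values of single members 7 moved by over 0.5, and 10 changed sign, none in a comparison of Vhl status alone and none with a difference above 0.49 in size. The median of the members ran from -0.30 to -0.08 with and -0.51 to -0.40 without the Apc mutation, and for the Apc comparisons from -0.09 to 0.10 with deleted and from -0.06 to 0.04 with floxed Vhl. Leaving out probe sets ending in _s_at, _x_at or _a_at left no value for Prom1 and took Ascl2 and Lrig1 under 6 on all arrays. No array could be left out, because each genotype has 1. No paired analysis was possible because no genotype has a further replicate. Probe sets near background can understate folds, and whether the other Lgr5 and Ascl2 probe sets do so was not tested.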

Other observations

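Hormone-producing cells, which descend from the crypt stem cells, gave a median Vhl difference of 0.56 with and 0.06 without the Apc mutation over 7 marker genes. Gcg and Sct of this list differed by 1.13 and 0.60 with and by 0.06 and 0.45 without the Apc mutation. Cck, the gene of the hormone cholecystokinin, stood out in both backgrounds. It read 8.12 in the Vhl deleted array with mutant Apc and 8.10 in the Vhl deleted array, against 4.19 in the Vhl floxed array with mutant Apc and 4.67 in the Vhl floxed array. The Vhl floxed values lie within the range of the bacterial control probe sets. Whether the fold is understated at such levels was not tested.

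Ang4, an antimicrobial ribonuclease of secretory epithelial cells, varied more between the arrays than any of the marker genes. It read 11.66 in the Vhl deleted array with mutant Apc, 9.17 in the Vhl deleted array, 7.35 in the Vhl floxed array with mutant Apc and 10.61 in the Vhl floxed array. As for Prom1, the array with both alterations and the array with neither were the high pair. Cck and Ang4 were picked out after their values were seen.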
